A study of Homo sapiens with 10 samples.

Results

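The genes of fatty acid synthesis, storage and oxidation were followed in HCT116, a human colorectal cancer cell line, after loss of *ZMAT3* and after knockdown of p53. ZMAT3 is an RNA-binding zinc finger protein whose gene is switched on by p53, the tumour suppressor and transcription factor. The set was a list of 34 genes given by name. Its members were matched by gene symbol in the *ZMAT3* experiment. In the siRNA experiment they were matched by the Ensembl identifier of that symbol, or by the symbol where the identifier was not found. Of these, 33 were among the 13029 genes with values in the *ZMAT3* experiment, and all 34 were among the 17642 genes listed in the siRNA experiment, where 33 passed the filter on low values. *CD36*, which encodes a fatty acid transporter of the plasma membrane, was the member missing from both tests. It had no value among the genes analysed here in the *ZMAT3* experiment. It stood at 0.05 and 0.00 FPKM (fragments scaled to transcript length and to the library's total) in the siCTRL libraries and at 0.06 and 0.00 FPKM in the sip53 libraries.

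Sequenced RNA came from 3 cultures of *ZMAT3*-WT and 3 of *ZMAT3*-KO cells, and from 2 cultures transfected with a control siRNA (siCTRL) and 2 transfected with a pool of siRNAs against p53 (sip53). All were grown in DMEM with FBS, penicillin and streptomycin, and no drug treatment of the sequenced cultures is described. The study's text does not state the time of harvest of the sequenced siRNA cultures. *ZMAT3*-KO cells were made with Cas9 and a pair of guides flanking the p53 response element in the second intron of *ZMAT3*. WT and KO cells were grown from single cells after selection with puromycin. The study describes its knockout experiments as done with a single KO clone, so a difference between the genotypes and a difference between clones cannot be told apart, and p-values measure the spread between these cultures. The *ZMAT3* experiment is given in log2 CPM, by its name the log2 of counts after scaling by the total of the library. All libraries of this experiment share the same lowest and highest value, which scaling by the total alone does not give. The unit does not take transcript length into account, so values were compared between libraries and not between genes.

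Fatty acids are built in the cytosol from acetyl-CoA, which ATP citrate lyase makes from citrate and acetyl-CoA synthetase from acetate, by acetyl-CoA carboxylase and fatty acid synthase, and are then elongated and desaturated in the endoplasmic reticulum. Before any further use a free fatty acid is joined to coenzyme A by an acyl-CoA synthetase. The acyl-CoA is then either assembled into glycerolipids and stored as triglyceride in lipid droplets coated by perilipins, or carried into mitochondria by the carnitine palmitoyltransferases and degraded by beta-oxidation. In epithelial tumours such as those of the colon, synthesis of fatty acids is usually high, and SREBF1 is the transcription factor known for driving it.

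The labels were checked first. *ZMAT3* stood at 5.00, 5.20 and 5.26 log2 CPM in the WT libraries and at 2.25, 2.34 and 2.20 in the KO libraries. With sip53, *CDKN1A*, the p53 target that encodes p21, went from 525 and 481 FPKM to 34.2 and 37.7 FPKM, and *ZMAT3* from a mean of 12.8 ± 1.15 to 2.56 ± 0.841 FPKM (SD, n = 2 each). The epithelial markers *EPCAM*, *CDH1*, *KRT8*, *KRT18*, *KRT19* and *CDX2* had values in both tables, *VIL1* stood at 0.13 to 0.22 FPKM in the siRNA libraries, and *CEACAM5* had no value. Their summed level was 5757 to 6083 CPM in WT and 3160 to 3242 CPM in KO, and with *VIL1* 3737 to 3972 FPKM in siCTRL and 3532 to 4170 FPKM in sip53. The lower sum in KO lay in the keratins, as *KRT19*, *KRT8* and *KRT18* had log2 fold changes of -1.75, -0.94 and -0.82, while *EPCAM*, *CDH1* and *CDX2* had log2 fold changes of 0.01, 0.05 and -0.09 and did not pass the test (adjusted p = 0.807, 0.254 and 0.0984 by limma). The part of the keratin shift in the results below was not tested. With sip53, *EPCAM* was higher by a log2 value of 0.60 (unadjusted p = 0.0234 by limma), and the other 5 tested did not pass. None of the 5 adipocyte and 4 hepatocyte markers had a value in either table. Of the 4 blood cell markers, *CD68*, a lysosomal gene of macrophages, was higher in KO (log2 fold change 0.98) and with sip53 (2.09), but 81.6% of its exonic bases are shared with an overlapping gene on the same strand. *LYZ*, the lysozyme of myeloid cells, had values in the siRNA table alone, at 2.86 and 1.83 FPKM in siCTRL and at 1.74 and 0.74 in sip53, and *PTPRC* and *CD3E* had none. The fibroblast marker *COL1A1* had log2 fold changes of 0.16 in KO (adjusted p = 0.0269 by limma) and of 0.46 with sip53, where it did not pass the test. The siRNA libraries did not separate cleanly. sip53 replicate 1 correlated more closely with siCTRL replicate 2 (r = 0.963 over 14274 genes) than with sip53 replicate 2 (r = 0.958).

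In *ZMAT3*-KO cells members moved in both directions, also within a role. *ACSL5* in activation, *ACADVL* in oxidation and *PLIN2* at the lipid droplet rose, while *ACSL4*, *CPT2* and *PLIN3* of the same roles were lower by smaller amounts. In synthesis *FASN* fell and *ME1* rose. *SREBF1*, *SCD*, *ACLY* and *ACACA* did not pass the test. Of the 33 members with a value, 5 were higher in KO past the thresholds the study uses (adjusted p of 0.05 and a change of 1.5-fold), against 4.6% of all 13029 genes. These were *MGLL*, *ACSL5*, *ACADVL*, *LPIN2* and *PLIN2*. No member was lower past both thresholds, against 4.37% of all genes, while at an unadjusted p of 0.05 in the same limma fit 6 members were lower, against 32.4% of all genes, and 14 were higher, against 30.8%. On the adjusted p alone 13 members were higher, against 28.7% of all genes, and 6 were lower, against 30.1%. The KO libraries lay wholly above the WT libraries for 13 members, against 31.3% of all genes, and wholly below for 5, against 32.9%. In RNA from whole cultures, fewer cells with a transcript and less of it per cell cannot be told apart. The median log2 fold change was 0.03 over the 33 members and -0.01 over all genes. Of the 19 members called on the adjusted p, 15 kept their call under each of the 11 alternative settings, and *ACSL4*, *ACSS2*, *HADHA* and *PLIN3* lost theirs under at least 1 of them.

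**Figure D1:**
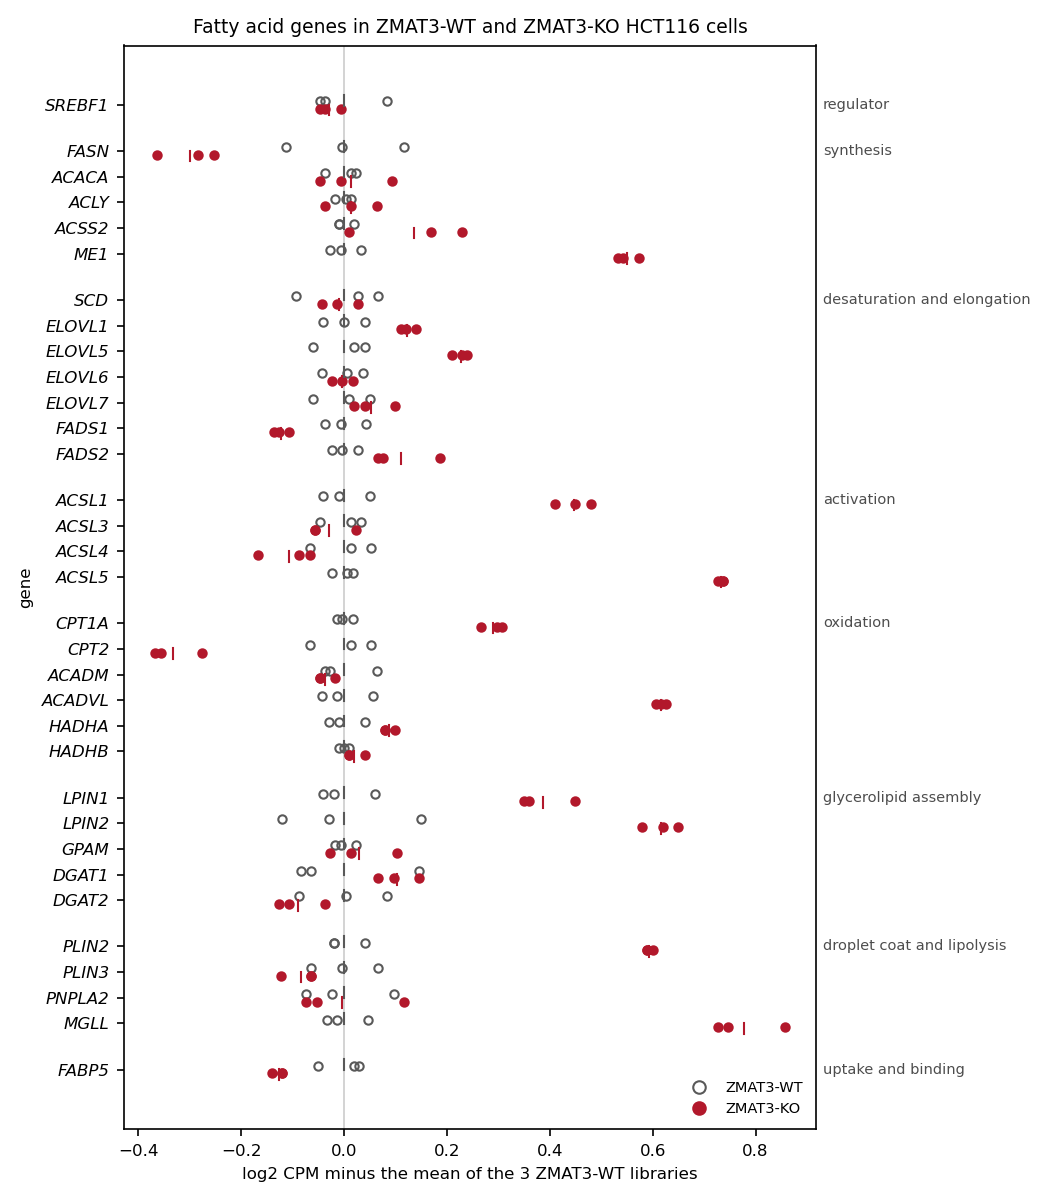
Level of each member in each library of the *ZMAT3* experiment, as log2 CPM minus the mean of the 3 WT libraries, grouped by role, with open circles for WT, filled circles for KO and short vertical lines for the group means. *MGLL*, *ACSL5*, *ACADVL*, *LPIN2* and *PLIN2* sit between 0.59 and 0.78 above their WT means, *FASN* and *CPT2* sit 0.30 and 0.34 below, and *SREBF1*, *SCD*, *ACLY* and *ACACA* straddle 0.

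Among the genes of synthesis, *SREBF1* stood at 7.58, 7.46 and 7.45 log2 CPM in WT and at 7.49, 7.46 and 7.45 in KO. The groups overlapped, and the log2 fold change was -0.03 (95% interval -0.11 to 0.05, adjusted p = 0.477 by limma). *FASN*, the fatty acid synthase, stood at 11.29, 11.17 and 11.06 in WT and at 10.89, 10.92 and 10.81 in KO. Every KO library was below every WT library, and the level fell by 1.23-fold (log2 fold change -0.30, SE 0.0473, adjusted p = 0.000167 by limma).

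*ME1*, the cytosolic malic enzyme that makes NADPH for synthesis, was the member of this role that rose. It stood at 6.99, 7.01 and 7.05 log2 CPM in WT and at 7.56, 7.55 and 7.59 in KO, a rise of 1.46-fold (log2 fold change 0.55, SE 0.0281, adjusted p = 5.93e-09 by limma) that ends just under the 1.5-fold threshold. *ACLY*, the ATP citrate lyase, and *ACACA*, the acetyl-CoA carboxylase, had log2 fold changes of 0.01 and 0.02 with overlapping groups. *ACSS2*, which makes acetyl-CoA from acetate, had a log2 fold change of 0.14 (adjusted p = 0.0427 by limma), and its groups overlapped. Its call was lost with *ZMAT3*-WT replicate 1, 2 or 3 or *ZMAT3*-KO replicate 1 or 3 left out, with an adjusted p of up to 0.193.

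Of the 7 genes of desaturation and elongation, 2 were higher and 1 was lower on the adjusted p, against 28.7% and 30.1% of all genes. *SCD*, the stearoyl-CoA desaturase that makes monounsaturated fatty acids, stood at 10.76, 10.92 and 10.88 log2 CPM in WT and at 10.81, 10.88 and 10.84 in KO. The KO values all lay within the WT range, with a log2 fold change of -0.01 (95% interval -0.09 to 0.07, adjusted p = 0.818 by limma). *ELOVL5*, which elongates polyunsaturated fatty acids, and *ELOVL1*, which makes very long chains, rose by log2 values of 0.22 and 0.13. *FADS1*, a desaturase of polyunsaturated fatty acids, fell by 0.12 on the log2 scale, while its neighbour in the pathway *FADS2* had a log2 fold change of 0.11 that missed the threshold (adjusted p = 0.0586 by limma). *ELOVL6* and *ELOVL7* had log2 fold changes of -0.00 and 0.05.

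The acyl-CoA synthetases diverged. *ACSL5*, which acts at mitochondria and the endoplasmic reticulum and is the family member best known from the intestine, lies at chr10:112374116-112428379 on the plus strand (hg38, GENCODE release 44). It stood at 7.48, 7.52 and 7.51 log2 CPM in WT and at 8.23, 8.24 and 8.24 in KO. The groups were far apart, at 7.50 ± 0.0197 (SD, n = 3) in WT against 8.24 ± 0.00423 (SD, n = 3) in KO, a rise of 1.66-fold (log2 fold change 0.73, SE 0.0255, adjusted p = 1.35e-10 by limma). *ACSL1*, known for channelling fatty acids to oxidation and storage, stood at 4.80, 4.83 and 4.89 in WT and at 5.25, 5.32 and 5.29 in KO, a rise of 1.36-fold (adjusted p = 1.12e-06 by limma). *ACSL3*, the synthetase of lipid droplets, had a log2 fold change of -0.03 with overlapping groups.

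*ACSL4*, which prefers polyunsaturated fatty acids such as arachidonate, stood at 6.69, 6.81 and 6.77 log2 CPM in WT and at 6.67, 6.69 and 6.59 in KO. The groups touched, and the log2 fold change of -0.10 (SE 0.0385, adjusted p = 0.0335 by limma) was small. The adjusted p was 0.147 without *ZMAT3*-WT replicate 2, 0.0891 without *ZMAT3*-WT replicate 3, 0.0594 without *ZMAT3*-KO replicate 1 and 0.152 without *ZMAT3*-KO replicate 3.

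Of the 6 genes of oxidation, 3 were higher and 1 was lower on the adjusted p, against the same 28.7% and 30.1% of all genes. *ACADVL* (chr17:7217125-7225266, plus strand), the very long-chain acyl-CoA dehydrogenase that opens the rounds of mitochondrial beta-oxidation on long chains, stood at 6.67, 6.60 and 6.57 log2 CPM in WT and at 7.24, 7.22 and 7.23 in KO. The rise was 1.53-fold, from 6.61 ± 0.0537 (SD, n = 3) to 7.23 ± 0.00824 (SD, n = 3; log2 fold change 0.62, SE 0.032, adjusted p = 6.68e-09 by limma). *CPT1A*, the carnitine palmitoyltransferase of the outer mitochondrial membrane and the controlled step of import, stood at 6.93, 6.92 and 6.95 in WT and at 7.23, 7.24 and 7.20 in KO. It rose by 1.23-fold without overlap (log2 fold change 0.29, SE 0.0277, adjusted p = 1.82e-06 by limma).

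*CPT2*, its partner on the inner membrane, moved the other way. It stood at 4.97, 4.85 and 4.93 log2 CPM in WT and at 4.55, 4.64 and 4.56 in KO, and fell by 1.26-fold (log2 fold change -0.34, SE 0.0452, adjusted p = 4.05e-05 by limma). *HADHA*, the alpha subunit of the trifunctional protein that carries out the later steps for long chains, had a log2 fold change of 0.09 (adjusted p = 0.0172 by limma), which was lost without *ZMAT3*-WT replicate 2 or 3, with an adjusted p of up to 0.0912. Its beta subunit *HADHB* and the medium-chain dehydrogenase *ACADM* had log2 fold changes of 0.02 and -0.04 with overlapping groups. The values of the import and dehydrogenase genes thus moved in both directions within the role.

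In glycerolipid assembly both lipins rose. Lipins are phosphatidate phosphatases that make the diacylglycerol from which triglyceride is built. *LPIN2* (chr18:2885296-3013144, minus strand) stood at 3.75, 3.84 and 4.02 log2 CPM in WT and at 4.49, 4.45 and 4.52 in KO, a rise of 1.53-fold from 3.87 ± 0.138 (SD, n = 3) to 4.49 ± 0.0346 (SD, n = 3; log2 fold change 0.61, SE 0.0631, adjusted p = 3.93e-06 by limma). *LPIN1* stood at 3.38, 3.36 and 3.46 in WT and at 3.76, 3.75 and 3.85 in KO, a rise of 1.31-fold (log2 fold change 0.38, adjusted p = 7.01e-05 by limma). Neither lipin overlapped between the groups. The acyltransferases that attach the fatty acids, *GPAM* at the first step and *DGAT1* and *DGAT2* at the last, had log2 fold changes of 0.03, 0.10 and -0.09, and their groups overlapped.

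At the lipid droplet, the coat gene *PLIN2* (chr9:19108375-19149290, minus strand) stood at 5.19, 5.19 and 5.25 log2 CPM in WT and at 5.80, 5.80 and 5.81 in KO. The means were 5.21 ± 0.0314 (SD, n = 3) and 5.80 ± 0.00734 (SD, n = 3), a rise of 1.51-fold (log2 fold change 0.59, SE 0.034, adjusted p = 1.66e-08 by limma). *MGLL* (chr3:127689062-128052190, minus strand), the monoacylglycerol lipase that frees the last fatty acid of a triglyceride, had the largest change of the 33 members. It stood at 2.81, 2.83 and 2.89 in WT and at 3.70, 3.57 and 3.59 in KO, a rise of 1.71-fold from 2.84 ± 0.041 (SD, n = 3) to 3.62 ± 0.0702 (SD, n = 3; log2 fold change 0.78, SE 0.061, adjusted p = 3.32e-07 by limma). *PNPLA2*, the lipase of the first step of triglyceride breakdown, had a log2 fold change of -0.00 with overlapping groups.

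*PLIN3*, a perilipin that moves between cytosol and droplets, had a log2 fold change of -0.08 (adjusted p = 0.0471 by limma), which was lost with *ZMAT3*-WT replicate 1 or 2 or any of the 3 *ZMAT3*-KO libraries left out, with an adjusted p of up to 0.141. The fatty acid binding protein gene *FABP5* stood at 8.50, 8.42 and 8.49 log2 CPM in WT and at 8.35, 8.33 and 8.35 in KO, and fell by 0.13 on the log2 scale (adjusted p = 0.00168 by limma). *PLIN2*, *LPIN2* and *ACADVL* lie close to the 1.5-fold threshold, a log2 value of 0.58, with *ME1* just under it. The 95% interval of *ACADVL*, 0.55 to 0.69, reaches below that value. Without *ZMAT3*-WT replicate 1 *PLIN2* and *LPIN2* dropped below the threshold, which left 3 members past both thresholds. *PLIN2* also did so without *ZMAT3*-WT replicate 2. With a pseudocount of 1 the count was likewise 3. The adjusted p of *PLIN2* and *LPIN2* stayed below 0.05 in each of these fits.

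The promoters were then searched because the study proposes that ZMAT3 acts on transcription through JUN, a subunit of the AP-1 factor. The JUN peak that the study describes at the hexokinase gene *HKDC1* lies in the first intron. A search of the bases before gene starts therefore does not test that kind of site. Of the members, the study examined JUN peaks at *SREBF1* and *CD36*. *SREBF1* was bound in all the cell lines it compared and *CD36* was not, and *SREBF1* RNA did not change after knockdown of *JUN*. For 29 members RefSeq (GRCh38.p14) lists 48 starts, and the 250 bases before each were searched on both strands. The AP-1 letters TGANTCA, which read the same way on both strands, were in 5 of these windows, against 6.57% of all 35116 windows. Of the 5 genes, *CD36* had no value, and the 4 with a value are shown 5′ to 3′ with the AP-1 letters in capitals.
ACADVL, chr17:7219688-7219937, plus strand: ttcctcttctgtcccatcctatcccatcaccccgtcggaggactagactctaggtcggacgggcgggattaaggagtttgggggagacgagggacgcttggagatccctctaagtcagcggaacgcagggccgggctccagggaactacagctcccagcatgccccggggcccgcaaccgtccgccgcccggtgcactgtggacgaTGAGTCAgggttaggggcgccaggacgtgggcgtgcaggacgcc
ACSL1, chr4:184812252-184812501, minus strand: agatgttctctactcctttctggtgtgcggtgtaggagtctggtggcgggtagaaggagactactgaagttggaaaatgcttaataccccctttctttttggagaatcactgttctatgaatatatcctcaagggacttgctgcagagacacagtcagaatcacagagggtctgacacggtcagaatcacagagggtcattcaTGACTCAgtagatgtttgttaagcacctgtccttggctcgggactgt
ELOVL5, chr6:53348951-53349200, minus strand: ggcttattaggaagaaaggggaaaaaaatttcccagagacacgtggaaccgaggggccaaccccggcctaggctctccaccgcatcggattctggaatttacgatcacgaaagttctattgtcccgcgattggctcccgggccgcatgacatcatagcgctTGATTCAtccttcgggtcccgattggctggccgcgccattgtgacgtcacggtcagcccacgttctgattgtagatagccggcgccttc
ME1, chr6:83431052-83431301, minus strand: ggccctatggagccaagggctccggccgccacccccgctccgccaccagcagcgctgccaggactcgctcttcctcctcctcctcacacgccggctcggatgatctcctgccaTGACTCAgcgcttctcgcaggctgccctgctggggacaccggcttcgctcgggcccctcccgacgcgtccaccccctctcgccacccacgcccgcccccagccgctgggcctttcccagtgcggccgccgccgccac

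The match lies 44 bases before the start in *ACADVL*, 47 in *ACSL1*, 89 in *ELOVL5* and 137 in *ME1*. The windows of *ACADVL*, *ACSL1* and *ME1* hold the stricter form TGACTCA or TGAGTCA, and that of *ELOVL5* does not. The start shown is 1 of 2 listed for *ACADVL* and 1 of 5 for *ACSL1*, and the table does not say which is used in HCT116. All 4 genes were higher in KO, by log2 values of 0.62, 0.45, 0.22 and 0.55 in the order given. Over all 574 genes with these letters and a KO value 37.1% were higher on the adjusted p and 28.2% were lower, against 28.9% and 31% of the 9156 genes without them. A match is a description of the letters and not a site of binding. *PLIN2* and *LPIN2* each hold the E-box letters CACGTG, as does *ELOVL5*. That is 3 of the 48 member windows, a share close to the 6.34% of all windows. No window of *ACSL5* held the AP-1 letters.

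In the siRNA experiment the levels could be compared between members, since FPKM are scaled to length. The order was led by *SCD*, with a siCTRL mean of 504 FPKM, which ranked 197 among the 14274 genes tested, then *FASN* (365 FPKM) and *FABP5* (ranked 297). *ACLY* (ranked 708) and *PLIN3* (763) followed. At the lower end were *LPIN2*, *LPIN1* and *MGLL*, with *MGLL* at 2.28 and 2.72 FPKM in siCTRL. *FASN* and *FABP5* are neighbours in this order whose libraries overlapped, and so are *LPIN1* and *LPIN2* (3.88 and 4.02 against 4.03 and 3.88 FPKM). Among the desaturases *SCD* took 93.6% and 93.9% of the summed FPKM of *SCD*, *FADS1* and *FADS2* in the siCTRL libraries. *DGAT1* took 86.7% and 87.7% of the sum over *DGAT1* and *DGAT2*. The authors' mean normalized count over the siRNA libraries ran from 344 for *MGLL* to 78507 for *SCD* among the 33 members tested, while *CD36* had a mean of 1.8.

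**Figure D2:**
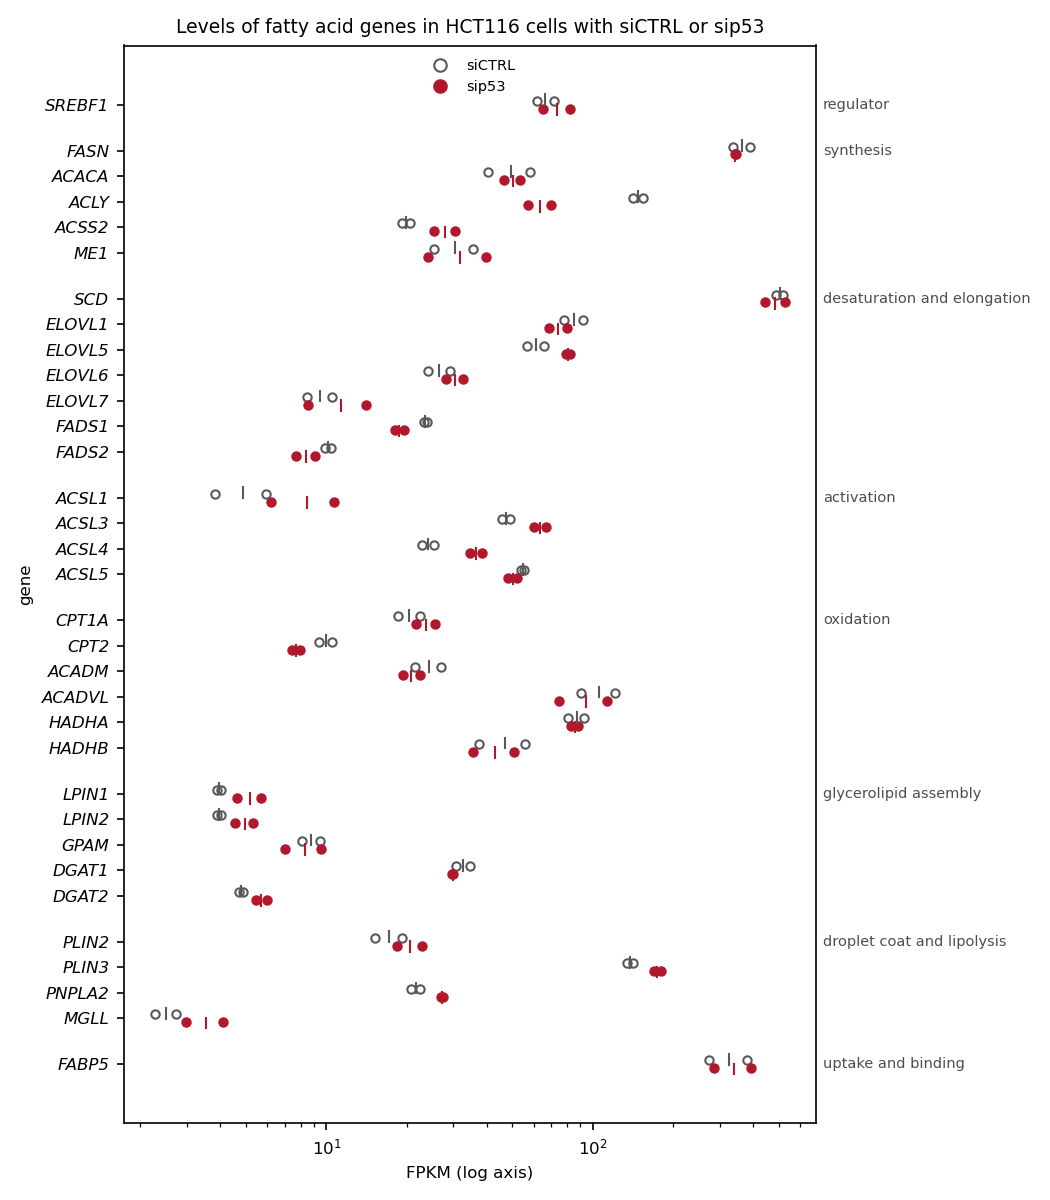
Level of each member in FPKM on a log axis in the 2 siCTRL libraries (open circles) and the 2 sip53 libraries (filled circles), grouped by role, with short vertical lines for the group means. Levels run from 2.28 FPKM for *MGLL* to 527 FPKM for *SCD*, and *ACLY* is the member with the widest gap between the groups.

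After knockdown of p53 the member with the lowest p was *ACLY*, which was lower, and *ACSL4* was higher. Of the 33 members tested, 1 was higher at the study's threshold of an unadjusted p of 0.05, against 5.86% of all 14274 genes, and 1 was lower, against 9.28%. Centring each library on its median gene moved the share of all calls that were higher from 38.7% to 51.7% and brought *ACSS2*, *ELOVL5* and *ACSL3* past the unadjusted threshold, which made 4 members higher. At an adjusted p of 0.05 no member was called by limma in the fit without pairing of the libraries, against 0.273% of all genes. The groups did not overlap for 11 members that were higher, against 20.1% of all genes, and for 6 that were lower, against 26.3%. With 2 libraries in each group, the exact permutation test of a single gene cannot go below a two-sided p of 0.333. The median log2 fold change was 0.06 over the 33 members and -0.04 over all genes, and the typical SE of a member was 0.198, against 0.0352 in the *ZMAT3* experiment.

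*ACLY*, which turns citrate exported from mitochondria into cytosolic acetyl-CoA, stood at 142 and 155 FPKM in siCTRL and at 70.0 and 57.3 FPKM in sip53. The groups did not overlap. The siCTRL mean was 148 ± 9.13 FPKM (SD, n = 2) and the sip53 mean was 63.6 ± 9.03 FPKM (SD, n = 2). The level was lower by 2.34-fold (log2 fold change -1.22, 95% interval -1.72 to -0.73, unadjusted p = 0.00121 and adjusted p = 0.107 by limma). Leaving out any of the 4 libraries gave values between -1.37 and -1.08 on the log2 scale, with an unadjusted p of at most 0.0122 by limma. In the *ZMAT3* experiment the same gene stood at 9.09, 9.10 and 9.07 log2 CPM in WT and at 9.10, 9.15 and 9.05 in KO, with a 95% interval of -0.05 to 0.08 around its log2 fold change.

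The *ACLY* promoter window is shown because this gene changed most with sip53. Its capitals mark the letters CCAAT, searched on both strands and found in 32% of all windows, which occur here 65 bases before the start on the minus strand of the window and 23 bases before it on the plus strand.
ACLY, chr17:41919023-41919272, minus strand: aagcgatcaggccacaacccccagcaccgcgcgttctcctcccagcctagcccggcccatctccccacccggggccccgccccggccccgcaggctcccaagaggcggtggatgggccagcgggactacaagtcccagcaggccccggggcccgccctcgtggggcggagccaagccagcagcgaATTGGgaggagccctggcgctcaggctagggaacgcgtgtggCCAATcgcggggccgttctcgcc

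*ACSL4* was the member that was higher. It stood at 23.0 and 25.4 FPKM in siCTRL and at 38.4 and 34.6 FPKM in sip53. The siCTRL mean was 24.2 ± 1.73 FPKM (SD, n = 2) and the sip53 mean was 36.5 ± 2.66 FPKM (SD, n = 2). The rise was 1.51-fold (log2 fold change 0.59, SE 0.179, unadjusted p = 0.0191 and adjusted p = 0.232 by limma). The unadjusted p was 0.145 without siCTRL replicate 1, 0.0752 without siCTRL replicate 2 and 0.0957 without sip53 replicate 1. *ACSL4* was therefore called in both experiments and in opposite directions, with a log2 fold change of -0.10 in KO and of 0.59 with sip53. The thresholds were unlike, an adjusted p in KO and an unadjusted p with sip53, and each call was lost under some of the alternative settings. *ACSL4* lies at chrX:109624244-109733403 on the minus strand in hg38.

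The other synthetases showed a like direction except for *ACSL5*. *ACSL3* stood at 48.8 and 45.7 FPKM in siCTRL and at 66.8 and 60.4 in sip53 (unadjusted p = 0.0568 by limma). *ACSL1* stood at 3.83 and 5.91 FPKM in siCTRL and at 10.7 and 6.18 in sip53, with a wide spread in both groups (log2 fold change 0.76, 95% interval -0.13 to 1.65). *ACSL5*, which rose in KO, stood at 54.0 and 55.2 FPKM in siCTRL and at 52.2 and 48.3 in sip53 (log2 fold change -0.12, 95% interval -0.55 to 0.31). The summed level of the 4 synthetases was 130 and 132 FPKM in siCTRL and 168 and 150 in sip53. *ACSL5* took 41.7% of that sum in both siCTRL libraries and 31.1% and 32.3% in the sip53 libraries, and *ACSL4* took 17.7% and 19.2% and then 22.8% and 23.2%.

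**Figure D3:**
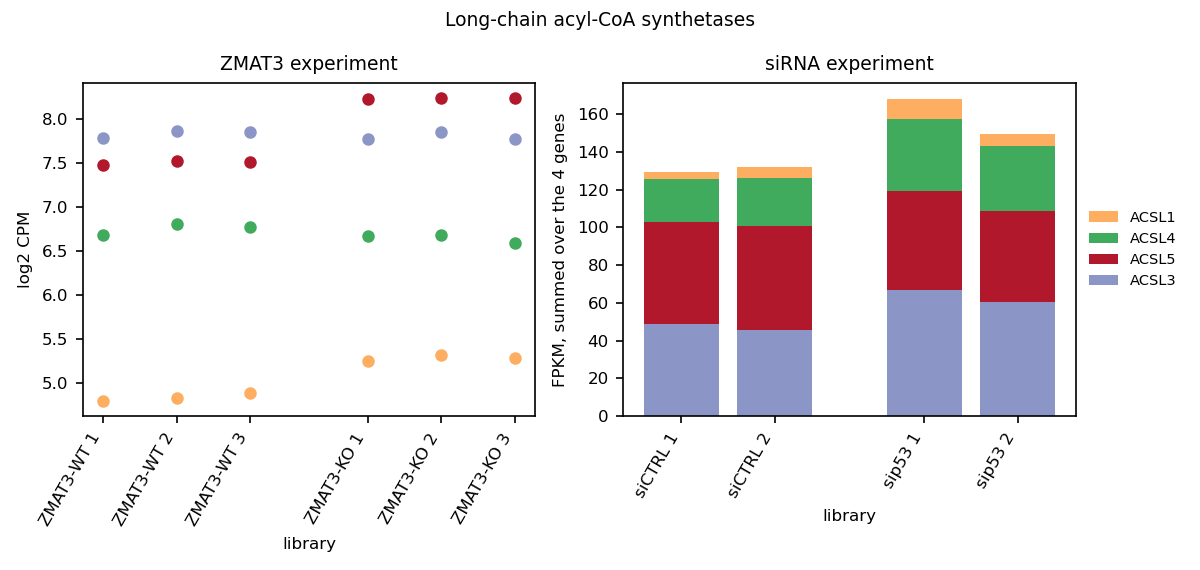
Left, log2 CPM of *ACSL1*, *ACSL3*, *ACSL4* and *ACSL5* in each library of the *ZMAT3* experiment, where *ACSL5* and *ACSL1* sit higher in the 3 KO libraries. Right, FPKM of the same genes stacked in each siRNA library, where the sum is 130 and 132 in siCTRL and 168 and 150 in sip53 and the *ACSL5* share is smaller with sip53.

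The members always given are *SREBF1*, *FASN*, *SCD* and *CPT1A*, and none passed the test with sip53. *SREBF1* stood at 71.3 and 61.7 FPKM in siCTRL and at 65.3 and 82.2 in sip53 (log2 fold change 0.14, 95% interval -0.38 to 0.66). *FASN* stood at 338 and 392 FPKM and then at 346 and 342 (log2 fold change -0.08, 95% interval -0.57 to 0.41). These intervals are wide enough to hold changes in either direction. *SCD* stood at 488 and 521 FPKM and then at 527 and 443 (log2 fold change -0.06, 95% interval -0.58 to 0.45). *CPT1A* stood at 18.5 and 22.5 FPKM and then at 25.6 and 21.6 (log2 fold change 0.20, 95% interval -0.30 to 0.71). All 4 overlapped between the groups.

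By role, the 4 genes of the droplet coat and of lipolysis all had values above 0 with sip53, against 45.9% of all genes. Their log2 fold changes ran from 0.26 to 0.47 with a median of 0.34, and none passed the test. The related genes of this role did not share that direction, as 2 of the 6 tested had values above 0, with a median of -0.16. *PLIN3* stood at 135 and 142 FPKM in siCTRL and at 180.5 and 170.1 in sip53, and *PNPLA2* at 20.7 and 22.5 and then at 26.9 and 27.5. Of the 6 genes of oxidation 5 had values below 0, with a median of -0.15, and *CPT2*, at 10.5 and 9.38 FPKM and then at 7.98 and 7.40, was the member without overlap. The lipins stood at 3.88 and 4.02 FPKM (*LPIN1*) and 4.03 and 3.88 (*LPIN2*) in siCTRL and at 5.69 and 4.60 and at 5.31 and 4.55 in sip53. Neither passed the test, though their groups did not overlap. *FADS1* and *FADS2* were both lower without overlap, with log2 fold changes of -0.32 and -0.28 that did not pass the test, and *ELOVL5* and *ACSS2* were higher without overlap at 0.40 and 0.47 (unadjusted p = 0.0736 and 0.0505 by limma). *ME1*, *ACADVL*, *HADHB* and *FABP5* split by library in both groups, with siCTRL replicate 1 and sip53 replicate 2 on the same side, and so did 23 of the 33 members and 74.4% of all genes.

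**Figure D4:**
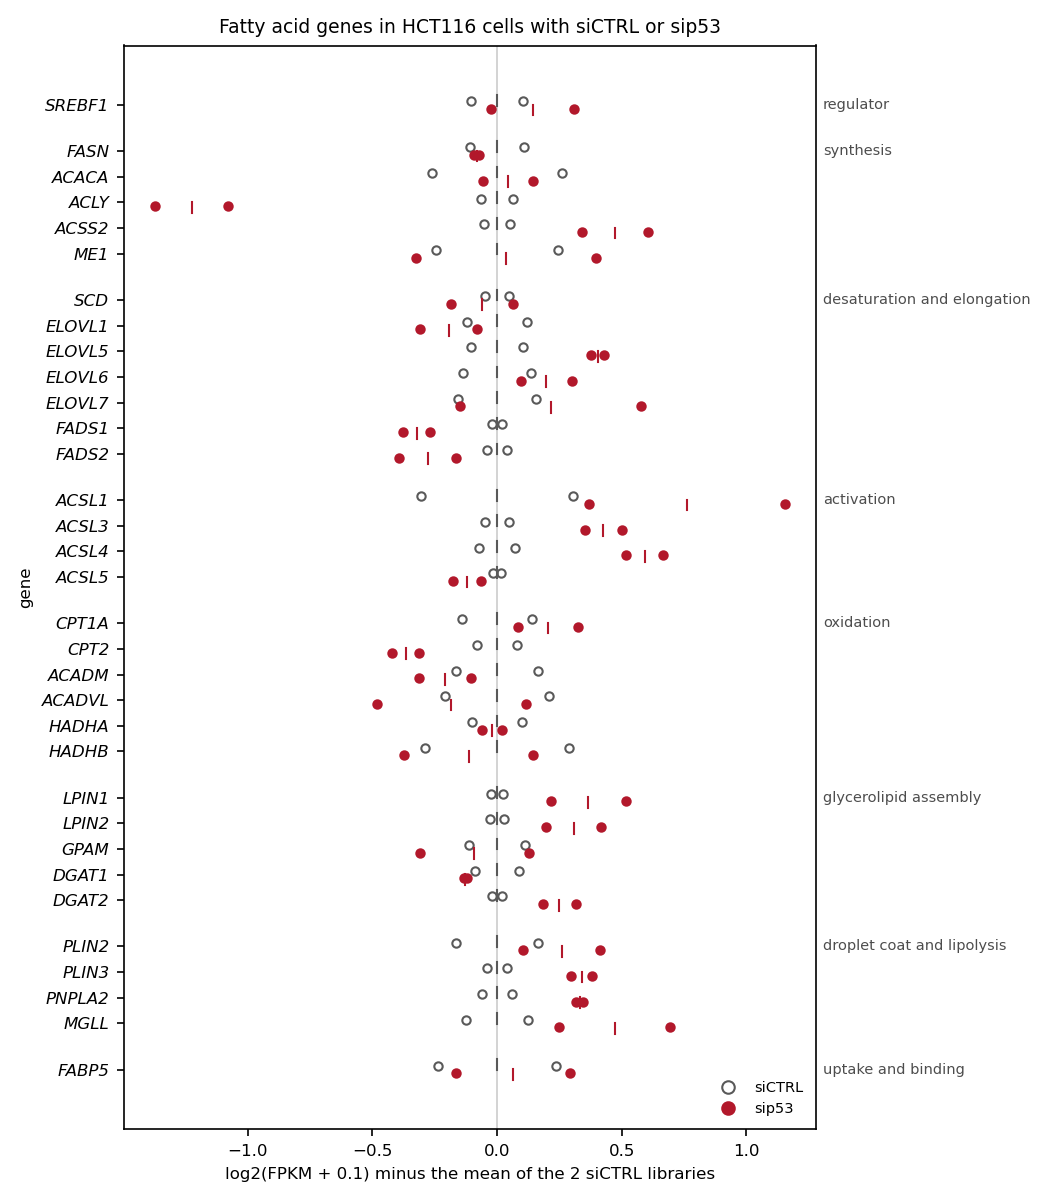
Level of each member in each siRNA library, as log2(FPKM + 0.1) minus the mean of the 2 siCTRL libraries, grouped by role, with open circles for siCTRL, filled circles for sip53 and short vertical lines for the group means. *ACLY* sits 1.22 below its siCTRL mean and *ACSL4* 0.59 above, and *ACSL1* is the member with the largest value above 0 (0.76).

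Of the 13 members higher in KO, 9 had values above 0 with sip53 (69.2%), with a median of 0.26, while of the 3341 genes higher in KO and tested in both 41.2% did. Of the 6 lower in KO, 3 were above 0 and 3 below. *MGLL*, *PLIN2*, *LPIN1*, *LPIN2*, *CPT1A*, *ACSL1*, *ELOVL5*, *ACSS2* and *ME1* were higher in KO with values above 0 with sip53. *CPT2*, *FASN* and *FADS1* were lower in KO with values below 0 with sip53, and *ACSL5*, *ACADVL*, *HADHA* and *ELOVL1* were higher in KO with values below 0 with sip53. These shares count signs alone, and none of the genes just named passed the unadjusted p with sip53 by limma. *ME1* and *HADHA* lay near 0 with sip53, at 0.04 and -0.02, and *HADHA* was at 0.06 with median centring. *ACSL4* was called in both, in opposite directions, on the adjusted p in KO and on the unadjusted p with sip53, and neither call held under every alternative setting. The experiments were normalized separately and the difference between them was not tested.

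**Figure D5:**
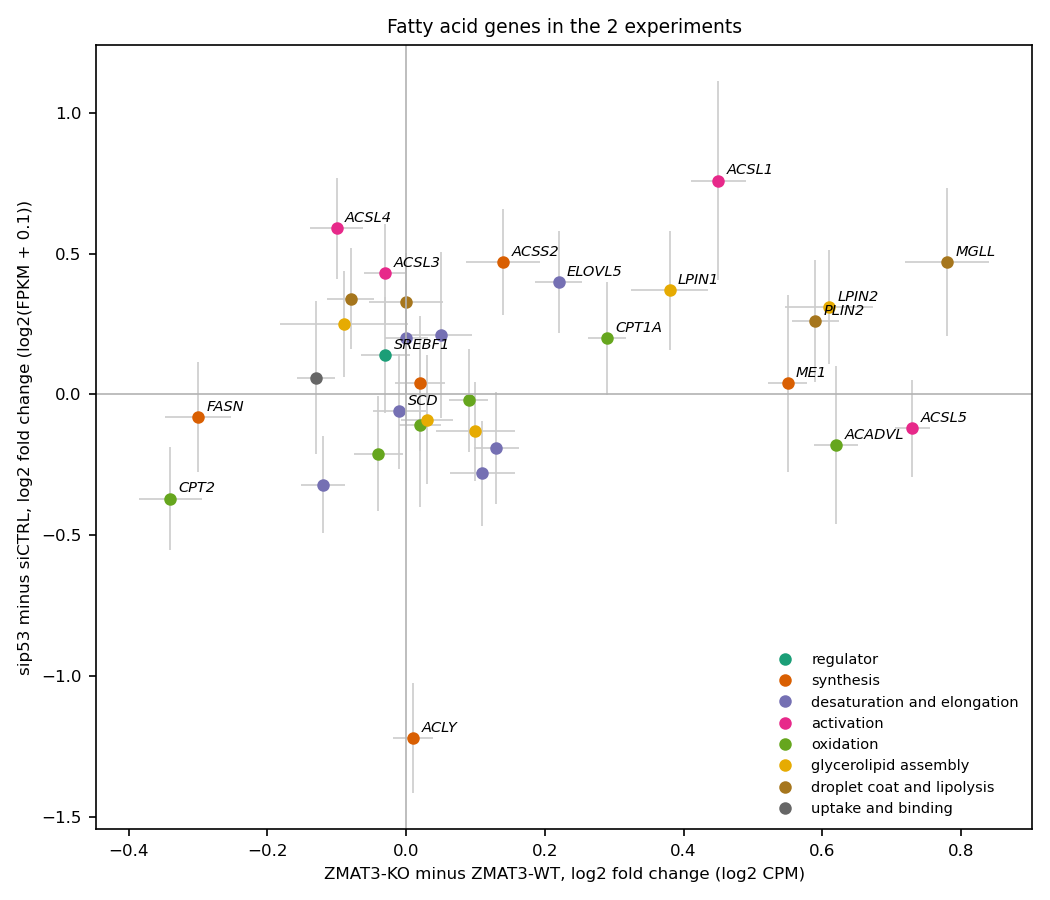
Log2 fold change of each member in KO against WT (x axis) and with sip53 against siCTRL (y axis), coloured by role, with bars of 1 SE. The genes past 1.5-fold in KO lie at the right with sip53 values from -0.18 to 0.47, and *ACLY* lies alone at the bottom with a KO value of 0.01.

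A wider list of 117 lipid genes that are not members gave the surroundings of these results, and 92 of them had a value in the *ZMAT3* experiment. Past both thresholds 3 were higher, against 4.6% of all genes, and 6 were lower, against 4.37%. On the adjusted p alone 37 were higher, against 28.7%, and 30 were lower, against 30.1%. The 3 that rose were *PLIN4* and *PLIN5*, further coat proteins of lipid droplets, and *AGPAT4*, an acyltransferase of glycerolipid assembly. *PLIN4* stood at -1.44, -0.24 and -0.60 log2 CPM in WT and at 3.23, 3.26 and 3.14 in KO, a log2 fold change of 3.97 (adjusted p = 1.74e-08 by limma). *PLIN5* rose by 0.99 and *AGPAT4* by 0.98, so that with *PLIN2* 3 of the perilipin genes were higher while *PLIN3* was not. *PLIN4* and *PLIN5* were below the filter in the siRNA experiment, at 0.05 to 0.11 and at 0.28 to 0.51 FPKM. *PLIN5* also shares 21.7% of its exonic bases with a gene on the same strand.

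The 6 related genes that fell were *ACSL6*, a further acyl-CoA synthetase, by 0.87 on the log2 scale, *LPIN3* by 0.84, the elongase *ELOVL3* by 0.80, *PRKAA2*, a catalytic subunit of the energy-sensing kinase AMPK, by 0.66, the glycerol phosphate acyltransferase *GPAT2* by 0.63 and the fatty acid transporter *SLC27A1* by 0.61. The level of *ACSL6* was low, at 0.31, 0.56 and 0.71 log2 CPM in WT and at -0.71, 0.15 and -0.46 in KO, and it was below the filter in the siRNA experiment. *LPIN3* thus fell while the member lipins *LPIN1* and *LPIN2* rose.

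With sip53, the unadjusted p was under 0.05 for 18 of the 90 related genes tested, of which 5 were higher, against 5.86% of all genes, and 13 were lower, against 9.28%. None passed the adjusted p by limma in the fit without pairing. *INSIG1*, which holds SREBF proteins in the endoplasmic reticulum and is itself their target, stood at 23.2 and 26.4 FPKM in siCTRL and at 80.8 and 54.6 in sip53 (log2 fold change 1.42, unadjusted p = 0.00175 by limma). *CPT1C*, the carnitine palmitoyltransferase known from brain, stood at 6.17 and 7.27 and then at 15.0 and 20.4 (1.37, unadjusted p = 0.00145 by limma). *ELOVL3*, *ACSM3*, a medium-chain acyl-CoA synthetase, and *AGPAT4* were higher by log2 values of 0.77, 0.70 and 0.67. *FITM2*, which aids droplet formation, and *ACAA1*, the peroxisomal thiolase, were lower by -1.16 and -0.97. *LPCAT1*, an acyltransferase of phospholipids, *PRKAB1*, an AMPK subunit, *ACAD11*, an acyl-CoA dehydrogenase, *SLC27A2*, a very long-chain acyl-CoA synthetase, and *DECR1*, which handles unsaturated chains in mitochondria, were lower by -0.84, -0.78, -0.76, -0.68 and -0.64. *ACAD11* shares 72.2% of its exonic bases with a read-through gene on the same strand, so its reads may be split.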

How the data were processed

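The 34 members, the 117 related genes and the tests were chosen with earlier results of these data known. For the *ZMAT3* experiment the authors trimmed reads with Cutadapt (v1.18), aligned them to hg38 with STAR (v2.7.0f) and GENCODE annotation and quantified genes with RSEM (v1.3.1). The values the authors deposited are log2 CPM. The step from RSEM to log2 CPM is not given in the sources used here, and all 6 libraries have the same lowest and highest value and a like median, as quantile normalization leaves them. For the siRNA experiment the deposited values were read as FPKM. The submitters' processing notes name CASAVA 1.8.2, TopHat2 2.0.8 and FastQC 0.11.2 with hg19 and hg38, without roles. The FPKM over the authors' mean normalized count, the deposited signal per gene over the siRNA libraries, fell with exon length (Spearman's rho -0.58 over 8274 genes), as a value per length does. Neither table gives read counts, so the depth of the libraries is unknown. The deposited tables also hold the authors' fold ratios, log2 fold changes, a score and p-values, which were not used.

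Each experiment was tested alone with limma 3.58.1 in R 4.3.3 (variance trend, two-sided, Benjamini-Hochberg over all genes), on log2 CPM for 13029 genes and on log2(FPKM + 0.1) for the 14274 genes whose mean reached 0.5 FPKM. Folds are on those scales. Replicate correlations were at least 0.995 in the *ZMAT3* and 0.958 in the siRNA groups, and no 2 libraries were identical. Members and related genes were matched by symbol in the *ZMAT3* experiment and by Ensembl identifier, or else by symbol, in the siRNA experiment. Every member has its library values given or is counted by role, and those past a threshold, and *SREBF1*, *FASN*, *SCD*, *CPT1A* and *CD36*, are given in full. The related genes named are those past a threshold, at most 12 an experiment by size. Alternative settings were median centring, a pseudocount of 1, other filters, no variance trend, a replicate block, other thresholds and leaving out each library. The fits were tested on simulated data. Gene positions are from GENCODE release 44 and promoters from RefSeq (GRCh38.p14). Tables were handled with Python 3.11.15 and pandas 2.3.3. The p53 transcript itself is not reported here, and the proteomic and binding data of the study were not analysed here.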

Additional observations from a re-analysis of the deposited data

How the results depend on the processing

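Over all members tested, 654 of the 690 refits under the alternatives gave the same call, or again none, on the adjusted p in KO and the unadjusted p with sip53. A call was lost in 24, for *ACSL4*, *ACSS2*, *HADHA* and *PLIN3* in KO and for *ACSL4* with sip53, and gained in 12, for *FADS2* and *DGAT1* in KO and for *ACSS2*, *ACSL1*, *ACSL3* and *ELOVL5* with sip53. In KO, the count of members higher past both thresholds went from 5 to 3 with a pseudocount of 1, to 0 with a 2-fold threshold and to 3 to 5 with each library left out. Past the adjusted p alone, the members higher numbered 13 and the members lower 6, and both stayed within 1.5 times under the settings tried. For sip53 the count of members higher was 1, and became 2 with a filter of at least 5 FPKM, 4 with no filter, 4 with median centring, 0 at an adjusted p of 0.05 and 0 to 2 with each library left out. The count of members lower was 1, and became 0 at an adjusted p of 0.05. Median centring moved all sip53 calls from 38.7% to 51.7% higher and the members' median log2 fold change from 0.06 to 0.14, and leaving out each library moved it between 0.06 and 0.17. The related genes lower in KO went from 6 to 3 with a pseudocount of 1. The cause of these shifts was not tested. With 2 libraries a group, changes smaller than the intervals given were not detectable with sip53 in the fit without pairing. No read counts were at hand to set a depth limit.

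The replicate numbers did not pair the *ZMAT3* libraries (r of -0.093 to -0.022 between deviations of libraries with the same number), and the replicate block left 5 members higher past both thresholds and 0 lower, with 14 higher and 6 lower on the adjusted p. In the siRNA experiment the same numbers gave r = -0.616. The replicate block left 0 members higher and 1 lower with sip53, and took the related genes from 5 higher and 13 lower to 3 and 4. A crossed pairing, added after the data had been seen, gave 8 members called higher, against 16.9% of all genes, and 3 called lower, against 21.9%, with 7 of these 11 also past an adjusted p of 0.05, against 25.5% of all genes.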

Other observations

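Some lipid genes outside the list of members also differed in KO by less than 1.5-fold, and those given here were chosen after their values were seen. *PPARG* and *PPARA*, nuclear receptors that bind fatty acids and drive storage and oxidation genes, stood at 6.45 to 6.47 and at 3.37 to 3.51 log2 CPM in WT and at 6.88 to 6.92 and 3.93 to 3.99 in KO. *PPARD*, the third receptor of this family, stood at 5.47 to 5.51 in WT and at 5.26 to 5.33 in KO (log2 fold change -0.18). *EHHADH*, the bifunctional enzyme of peroxisomal oxidation, had a log2 fold change of 0.50. *ABHD5*, which activates the lipase encoded by *PNPLA2*, had a log2 fold change of 0.38, and *LIPE*, the hormone-sensitive lipase, had a log2 fold change of -0.41. Each of these 6 had an adjusted p below 0.05 by limma, with groups that did not overlap. Over all genes 28.7% were higher and 30.1% lower on the adjusted p, and 31.3% and 32.9% were so without overlap. With sip53, *PPARA* stood at 2.96 and 3.18 FPKM in siCTRL and at 7.82 and 3.82 in sip53 (unadjusted p = 0.0735 by limma).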
